A study of Mus musculus with 2 samples.

Results

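The 9 genes described here store iron, move it across membranes or take it out of haem, and they were followed through the immune cells of mouse melanoma: Fth1, Ftl1, Ncoa4, Tfrc, Slc11a1, Slc11a2, Slc40a1, Hmox1 and Blvrb. They were chosen by symbol, 9 of the 32285 genes counted, and all 9 were found. Living CD45+ cells were sorted from tumours of B16-F10, a transplantable mouse melanoma line, taken 14 days after injection, with 3 tumours per group. In one group the injected cells were a DGAT1 knockout, directed at an enzyme of triglyceride synthesis, and in the other they were WT. The genotype belongs to the injected line, so the immune cells of both groups came from the host. Whether the knockout line was 1 clone, and the strain and age of the mice, are not stated in the labels.

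Each group has 1 droplet library and no map from cells to its 3 tumours. No test between groups was therefore possible, and every value below describes these 2 libraries. Sequencing gave 202946827 UMIs (unique molecular identifiers, each standing for 1 captured RNA molecule) from knockout tumours and 235652476 from WT tumours. The cells kept numbered 10982 and 9084, at a median depth of 10774.5 and 14167.5 UMIs, and 24 barcodes occurred in both libraries. Dgat1 itself stood at 17.99 CPM in the 53 melanoma-like cells of the knockout library and at 27.4 CPM in the 217 of the WT library. The labels do not say which bases were deleted, so UMIs outside them would not check the genotype.

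Cells were placed by marker genes into 9 classes that reached 100 cells in both libraries and held 7302 and 6199 cells. Macrophage-like cells numbered 1464 and 2649, monocyte-like cells 1884 and 960, and CD8 T-like cells 2200 and 1700, with the knockout library first here and wherever 2 values stand side by side. The other classes were NK-like (458 and 217), neutrophil-like (204 and 104), cDC1-like (127 and 149), cDC2-like (311 and 133) and mature dendritic-like cells (271 and 163). Cells that passed no other gate but were positive for at least 2 of Inhba, Slc7a2 and Egln3 are called here Inhba phagocytes. They numbered 383 and 124, and 270 and 93 of them were positive for 2 of the 3. Their gate asked for no other phagocyte marker, and cells with these markers that passed another gate are not among them. The other gates asked for at least 3 of a class's markers, so the presence of these markers was fixed by the gate. Of 7 macrophage markers the median macrophage-like cell was positive for 5 and 6. Of 6 CD8 T markers the median CD8 T-like cell was positive for 6 in both libraries. Levels are in CPM, counts per 1000000, that is, how many of 1000000 UMIs from a class and library belonged to the gene. Intervals of levels and ratios are exact, at 95%, and leave out every error but that of counting.

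Iron in cells is held in ferritin, a shell of heavy (Fth1) and light (Ftl1) chains, from which the cargo receptor Ncoa4 releases it by autophagy. Transferrin receptor (Tfrc) brings iron in, the metal transporters Slc11a2 and Slc11a1 move it out of endosomes and phagosomes, and ferroportin (Slc40a1) is the known exporter of iron from the cell. Macrophages recycle iron from haem: haem oxygenase 1 (Hmox1) opens the ring to biliverdin, releasing the iron, and biliverdin reductases reduce biliverdin, with Blvrb acting on the beta isomer and also as a flavin reductase.

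The best known switch of this system lies in the messengers. Iron regulatory proteins bind a hairpin, the iron-responsive element, and when iron is scarce they block translation from a 5′ UTR and protect a messenger that carries the hairpin in its 3′ UTR. The sequences are shown because storage and export on the one hand and uptake on the other carry it at opposite ends, so that UMI counts read only part of the regulation. They were searched in GENCODE M21 transcripts (mm10) for a C, 5 bases, the loop CAGTGN, and 5 bases that pair with the first 5, with G to T pairs allowed, on the transcript's own strand. Of the 9 genes, 4 held it in a UTR, against 28 (0.128%) of 21899 protein-coding genes in the 5′ UTR and 127 (0.58%) in the 3′ UTR. The pattern is that of the known element, so these shares give its rarity and are no test of the 9 genes. No match in the other 5 says only that these letters are not there. Capitals mark the loop of 6 bases, and each stretch is 30 bases, read 5′ to 3′ on the gene's strand.
Fth1 5′ UTR, chr19:9982732-9982761, plus strand: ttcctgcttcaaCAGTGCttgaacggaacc
Ftl1 5′ UTR, chr7:45459778-45459807, minus strand: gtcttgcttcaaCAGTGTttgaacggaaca
Slc40a1 5′ UTR, chr1:45925464-45925493, minus strand: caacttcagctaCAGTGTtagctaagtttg
Tfrc 3′ UTR, chr16:32631219-32631248, plus strand: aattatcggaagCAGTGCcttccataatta
Tfrc 3′ UTR, chr16:32631598-32631627, plus strand: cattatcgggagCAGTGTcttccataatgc
Tfrc 3′ UTR, chr16:32631663-32631692, plus strand: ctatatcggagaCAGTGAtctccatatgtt
Tfrc 3′ UTR, chr16:32631710-32631739, plus strand: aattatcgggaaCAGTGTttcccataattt

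Both ferritin chains and ferroportin thus held 1 element each before the coding sequence, and Tfrc held 4 after it. The stems next to the loop are the same 5 bases in Fth1 and Ftl1.

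Across the 9 classes, 65 of the 81 gene and class pairs had at least 50 UMIs in a library. Of these, 17 were at least 1.5-fold lower in the knockout library, where 3.96% of all 76479 gene and class pairs were, and 2 were at least 1.5-fold higher, where 6.72% of all pairs were. The ratio was below 1 in 47 of the 65, and in 21 of the 65 at least 1 of 12 alternative settings put it on the other side of 1. Of all genes measured, from 36.5% in mature dendritic-like to 51.8% in macrophage-like cells had a ratio below 1. The lower levels lay mainly in Blvrb (5 of 7 classes measured), Hmox1 (5 of 9) and Ftl1 (3 of 9), and both higher pairs were transporters, Slc40a1 in neutrophil-like cells and Slc11a2 in cDC1-like cells. In NK-like cells 1 of 6 genes measured, Hmox1, was 1.5-fold lower, where 2.03% of all genes were, and none was higher, where 5.98% were. In cDC2-like cells 1 of 7, Hmox1, was lower, where 2.18% were. No gene of the 9 was 1.5-fold higher in CD8 T-like cells (3.10% of all genes), macrophage-like cells (6.06%), monocyte-like cells (5.42%), mature dendritic-like cells (9.24%) or Inhba phagocytes (11.9%), and none was lower in neutrophil-like cells (5.75%). No library was replicated, so these counts carry no error between tumours.

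RNA outside cells bears on these counts. Read from barcodes with at most 100 UMIs, it held Fth1 at 6357 and 9357 CPM, Ftl1 at 3028 and 5896, Hmox1 at 286 and 393, and Blvrb at 119 and 343. From melanoma genes in immune cells, free RNA was put at 11.0% and 7.59% of the UMIs of macrophage-like cells, 7.21% and 7.40% of monocyte-like, 3.43% and 3.40% of CD8 T-like and 17.3% and 19.1% of neutrophil-like cells. These are upper estimates where cells have taken up tumour material. In CD8 T-like and NK-like cells, macrophage C1q genes gave lower values of 1.65% and 1.53%, and 3.35% and 3.38%. In 8 of the 17 lower pairs free RNA could give over 25% of the gene's UMIs in a library: Hmox1 in CD8 T-like, NK-like and all 3 dendritic classes, Blvrb in CD8 T-like and mature dendritic-like cells, and Slc11a1 in CD8 T-like cells. The 9 other lower pairs were in phagocytes and dendritic cells. In NK-like cells free RNA was also put at 46.4% and 75.3% of the Fth1 UMIs.

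**Figure D1:**
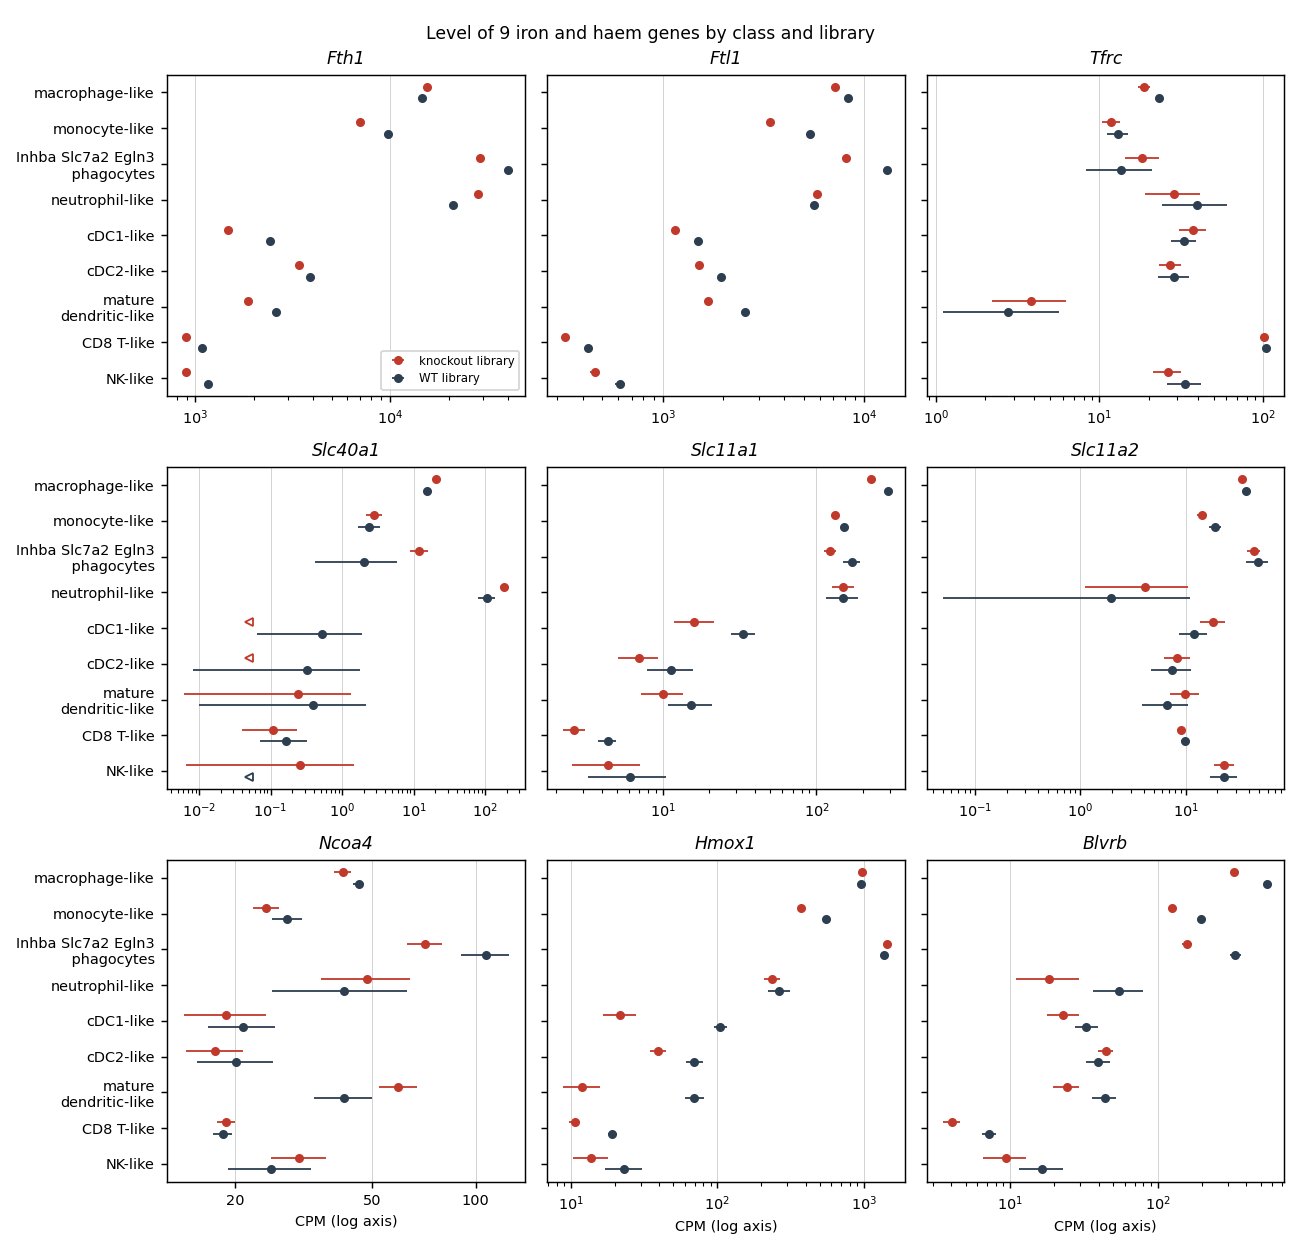
Level of each of the 9 genes in 9 classes, in CPM on a log axis, for the knockout library (red) and the WT library (dark). Bars are exact 95% intervals for counting error, and open triangles mark 0 UMIs. Fth1, Ftl1 and Hmox1 are highest in Inhba phagocytes, Slc11a1 and Blvrb in macrophage-like cells, Slc40a1 in neutrophil-like cells and Tfrc in CD8 T-like cells, in both libraries.

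Blvrb (chromosome 7, 27447978 to 27466144, plus strand) showed the most widespread difference among phagocytes. In macrophage-like cells it stood at 327 CPM against 555 CPM in WT, a ratio of 0.589 (0.575 to 0.602). Monocyte-like cells gave 125 and 196 CPM, a ratio of 0.639 (0.605 to 0.674), and Inhba phagocytes 159 and 337 CPM, a ratio of 0.471 (0.419 to 0.531). All 3 phagocyte classes were therefore lower in the knockout library by at least 1.5-fold. Free RNA gave an estimated 4.01% and 4.70% of its UMIs in macrophage-like cells, 6.84% and 12.98% in monocyte-like cells and 7.84% and 8.49% in Inhba phagocytes. With free RNA subtracted, the monocyte-like log2 ratio was -0.55, short of 1.5-fold.

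The difference in Blvrb was seen in every macrophage subset formed. Macrophage-like cells were split into cycling cells (150 and 494), cells with resident markers such as Lyve1 and Cbr2 (190 and 482), cells with Arg1, which encodes arginase (451 and 547), and the remainder (673 and 1126). Cycling macrophages held Blvrb at 340 and 557 CPM, those with resident markers at 395 and 630, those with Arg1 at 302 and 477, and the remainder at 315 and 544. The ratios ran from 0.579 to 0.632, and with the 4 subsets weighted equally the ratio was 0.612, against 0.589 in the class as a whole. In monocyte-like cells with Arg1 the levels were 177 and 308 CPM, a ratio of 0.575. In the 1513 and 725 monocyte-like cells without Arg1 they were 109 and 156, a ratio of 0.702 (0.656 to 0.752), short of 1.5-fold. The share of macrophage-like cells with a Blvrb UMI was 86.2% and 95.4%, and after each cell was thinned to 3000 UMIs it was 51.3% and 68.9%. In CD8 T-like cells, which have little Blvrb of their own, the thinned share was 1.51% and 3.02%. The 10 cells with most Blvrb held 5.98% and 2.54% of the macrophage UMIs, so the level was spread over many cells.

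Marker levels of other cell types differed between libraries beside this result. In macrophage-like cells the summed level of 6 monocyte markers was 730 and 465 CPM, that of 6 cDC2 markers 159 and 80.6, and that of the 7 macrophage markers 8619 and 11549, with no marker at 0 in either library. In monocyte-like cells the macrophage markers summed to 967 and 1694 CPM, a ratio of 0.571, and in Inhba phagocytes to 720 and 1342. Melanoma markers summed to 70.1 and 162 CPM in macrophage-like cells, 45.9 and 158 in monocyte-like cells and 66.7 and 178 in Inhba phagocytes. Erythroid markers summed to 4.86 and 5.41 CPM, 4.75 and 8.72 CPM, and 5.21 and 6.08 CPM in these 3 classes. The part of these cells and their RNA in the ratios of Blvrb and the other members was not tested.

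The relatives of Blvrb in haem breakdown did not pass 1.5-fold in macrophage-like cells. Blvra, the reductase for the main biliverdin isomer, stood at 84.4 and 113 CPM, a ratio of 0.745, and Hmox2, the constitutive haem oxygenase, at 112 and 135, a ratio of 0.830. The haem exporter Flvcr1 stood at 50.7 and 51.0 CPM. None of the 4 genes of that list was 1.5-fold higher or lower there.

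Hmox1 (chromosome 8, 75093621 to 75100589, plus strand) was high in phagocytes and close between libraries where it was highest. Inhba phagocytes held 1435 and 1379 CPM, a ratio of 1.04 (0.990 to 1.10), and macrophage-like cells 976 and 957 CPM, a ratio of 1.02 (1.01 to 1.03). The macrophage value did not keep its side of 1: it was 0.958 with the 4 subsets weighted equally, and without the 10 cells with most Hmox1 in each library its log2 ratio was -0.09. Monocyte-like cells were lower in the knockout library, at 372 and 549 CPM, a ratio of 0.677 (0.656 to 0.699), short of 1.5-fold. Neutrophil-like cells held 236 and 264 CPM, with intervals that overlap.

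Within macrophage-like cells Hmox1 varied more by subset than by library. Cells with Arg1 held 1613 and 1677 CPM and cells with resident markers 1584 and 1568, while cycling cells held 540 and 525 and the remainder 487 and 638. The remainder had a ratio of 0.763 (0.740 to 0.786), and that of cells with Arg1 was 0.962 (0.940 to 0.984). Monocyte-like cells with Arg1 held 1009 and 1277 CPM, and those without it 179 and 288.

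The lower Hmox1 of dendritic cells lay in few cells. It stood at 21.6 and 105 CPM in cDC1-like cells, 39.6 and 69.7 in cDC2-like cells and 11.96 and 69.5 in mature dendritic-like cells. In the WT library 10 cells held 88.8%, 86.0% and 88.2% of these UMIs. Without the 10 cells with most Hmox1 in each library, the log2 ratio went from -2.28 to -0.52 in cDC1-like cells, from -2.54 to -0.32 in mature dendritic-like cells and from -0.82 to 0.44 in cDC2-like cells. Those 10 WT cDC1-like cells held macrophage markers at 3076 CPM, against 199 in the other cDC1-like cells of that library, and the 10 WT cDC2-like cells at 1432 against 180. The 10 WT mature dendritic-like cells held 667 against 176. In the knockout library the 10 cells held 571, 708 and 1158 CPM in these 3 classes, against 254, 168 and 70.4 in the others. The 10 mature dendritic-like cells held 21 and 157 Hmox1 UMIs. Macrophage RNA in those droplets and Hmox1 made by dendritic cells cannot be told apart here.

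In lymphocytes a large part of the few Hmox1 and Blvrb UMIs could be free RNA. CD8 T-like cells held Hmox1 at 10.6 and 19.2 CPM, and NK-like cells at 13.7 and 23.0. Melanoma genes put 92.6% and 69.4% of the CD8 T-like UMIs down to free RNA, and C1q genes 44.5% and 31.2%. CD8 T-like cells held Blvrb at 4.02 and 7.23 CPM, with 101% and 161% by melanoma genes and 48.7% and 72.6% by C1q genes. These 2 pairs and Slc11a1 in CD8 T-like cells, at 2.65 and 4.36 CPM, make up the 3 of 8 genes measured that were at least 1.5-fold lower there, where 5.53% of all genes were, and nothing on T cell expression is read from them.

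**Figure D2:**
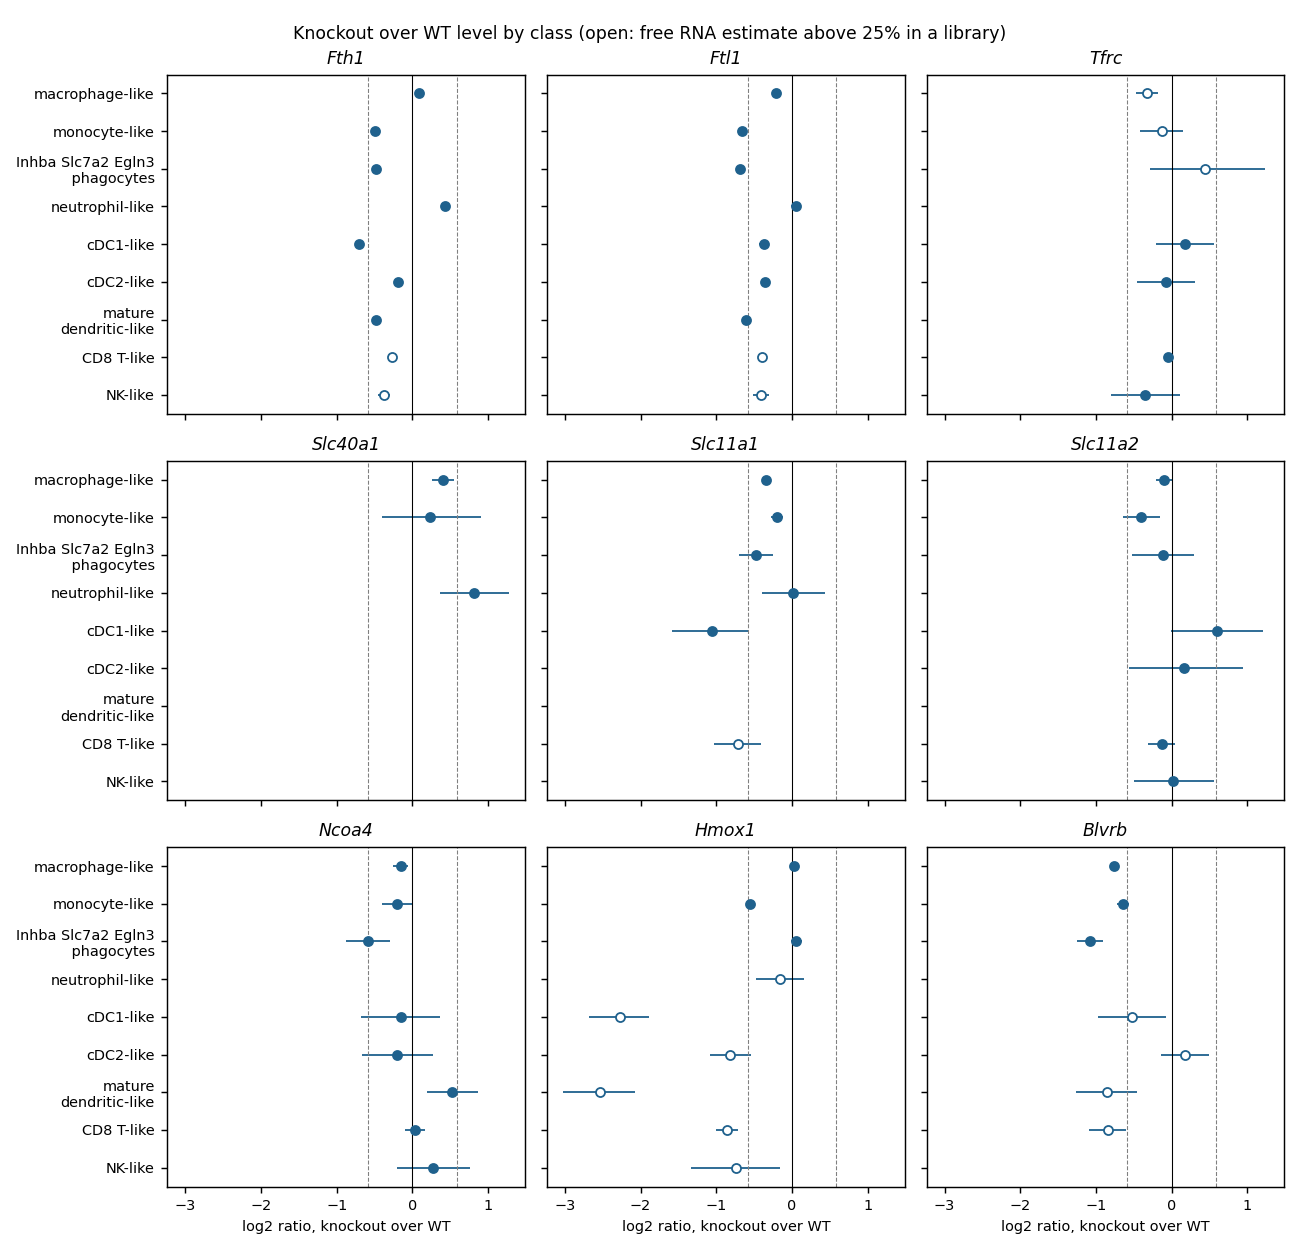
Log2 ratio of knockout over WT level for each gene and class with at least 50 UMIs in a library, with exact 95% intervals for counting error. Dashed lines mark 1.5-fold either way, and open points have a free RNA estimate above 25% in a library. Of 65 points, 17 lie at or beyond the left line and 2 at or beyond the right one, and Blvrb lies to the left in macrophage-like, monocyte-like and Inhba phagocyte cells.

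The ferritin heavy chain Fth1 (chromosome 19, 9980598 to 9985098, plus strand) was the most abundant of the 9 by UMIs in each of the 9 classes compared. Its order over classes was the same in both libraries for the upper ranks: Inhba phagocytes at 28923 and 40273 CPM, neutrophil-like cells at 28322 and 20989, macrophage-like cells at 15452 and 14540 and monocyte-like cells at 6959 and 9784. CD8 T-like cells (894 and 1079) and NK-like cells (899 and 1165) were lowest, and these neighbours overlapped in the knockout library. The intervals of all other neighbours were apart.

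Between libraries Fth1 went both ways. It was lower in the knockout library in 7 classes, with ratios from 0.611 in cDC1-like to 0.872 in cDC2-like cells, and higher in neutrophil-like cells (1.35, 1.32 to 1.38) and slightly in macrophage-like cells (1.06, 1.06 to 1.07). In NK-like cells, 1 of the 7, the direction turned with free RNA subtracted, to a log2 ratio of 0.70. The neutrophil-like log2 ratio went from 0.43 to 2.66 when only barcodes above the UMI threshold were used. That threshold was 8013 UMIs in the knockout and 13684 in the WT library, where neutrophil-like cells had median depths of 4216.5 and 4445. The median log2 ratio over the 543 genes measured in that setting was 0.72. The 2.66 thus rests on the deepest cells, cut at unlike depths. The cDC1-like value, 1469 and 2403 CPM, was the only one past 1.5-fold, and without the 10 cells with most Fth1 in each library its log2 ratio went from -0.71 to -0.29. The macrophage value went to the other side of 1 with the makeup held fixed. Fth1 stood at 22710 and 21772 CPM in cells with Arg1 and at 7942 and 9676 in cycling cells. The subset with Arg1 held 451 of 1464 and 547 of 2649 cells and the cycling subset 150 and 494. With the 4 subsets weighted equally the ratio was 0.971.

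The light chain Ftl1 (chromosome 7, 45457944 to 45459884, minus strand) was lower in the knockout library in 8 of 9 classes. In NK-like cells, 1 of the 8, free RNA was put at 43.3% and 90.4% of its UMIs, and with free RNA subtracted the direction turned, to a log2 ratio of 2.10. Monocyte-like cells held 3394 and 5375 CPM, a ratio of 0.632 (0.625 to 0.638), and this pair stayed past 1.5-fold under all 12 alternatives. Within this class, cells with Arg1 held 6138 and 9046 CPM, a ratio of 0.678, short of 1.5-fold. Those without Arg1 held 2562 and 4057 CPM, a ratio of 0.631. Inhba phagocytes held 8068 and 12989 CPM, a ratio of 0.621 (0.610 to 0.632), and mature dendritic-like cells 1674 and 2547, a ratio of 0.657 (0.635 to 0.680). The Inhba value went to a log2 ratio of -0.32 when the gate asked for 1 more marker and to -0.51 without the 10 cells with most Ftl1. In mature dendritic-like cells 3 of 5 genes measured, Ftl1, Hmox1 and Blvrb, were 1.5-fold lower, where 2.67% of all genes were. The Ftl1 value there went to -0.28 without the 10 cells with most Ftl1 in each library and to -0.53 with free RNA subtracted. Macrophage-like cells held 7151 and 8299 CPM, a ratio of 0.862, and were below 1 in 4 of 4 subsets. Neutrophil-like cells, at 5835 and 5614 CPM, had intervals that overlap.

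In monocyte-like cells 2 of 9 genes measured, Ftl1 and Blvrb, were at least 1.5-fold lower, where 3.40% of all genes were. The ratio was below 1 for 8 of the 9 there and for 42.0% of all 10581 genes measured, and the median ratio of the 9 was 0.755 against 1.05 over all genes. In Inhba phagocytes 3 of 8 genes, Ftl1, Ncoa4 and Blvrb, were lower by 1.5-fold, where 4.35% of all genes were. In macrophage-like cells 1 of 9, Blvrb, was lower, where 5.29% of all genes were, and 6 of 9 ratios were below 1 against 51.8% of all genes. The macrophage count is thus close to what all genes gave, apart from the size of the Blvrb difference.

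The ratio of heavy to light chain UMIs was higher in the knockout library in 8 of 9 classes. It was 2.16 and 1.75 in macrophage-like cells, 2.05 and 1.82 in monocyte-like cells, 3.59 and 3.10 in Inhba phagocytes and 4.85 and 3.74 in neutrophil-like cells. The cDC1-like cells went the other way, at 1.28 and 1.61. Free RNA was not taken out of the count of 8. In NK-like cells it was put at 46.4% and 75.3% of Fth1 and 43.3% and 90.4% of Ftl1 UMIs. With it subtracted, the log2 ratios of Fth1 and Ftl1 there were 0.70 and 2.10. The NK-like heavy to light ratio was then lower in the knockout library. In CD8 T-like cells free RNA was put, by melanoma genes, at 24.4% and 29.5% of Fth1 and 32.0% and 46.8% of Ftl1 UMIs. With this estimate subtracted, the CD8 T-like heavy to light ratio was also lower in the knockout library. UMIs of a near-identical copy, Ftl1-ps1, came to 1.55% and 1.48% of those of Ftl1 in macrophage-like cells, and the Ftl1 ratio with the copy added was again 0.862. How reads shared with such copies were split is not stated in the labels, so both ferritin levels are uncertain by that part.

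Ncoa4 (chromosome 14, 32159865 to 32179855, plus strand), which hands ferritin to the autophagosome, was highest in Inhba phagocytes, at 71.2 and 107 CPM, a ratio of 0.666 (0.547 to 0.814). In the knockout library its interval overlapped that of mature dendritic-like cells, the next class. This value sits at the 1.5-fold line and was short of it under 7 of 12 alternatives. Mature dendritic-like cells went the other way, at 59.6 and 41.4 CPM, a ratio of 1.44 (1.14 to 1.82). Macrophage-like cells held 41.0 and 45.7 CPM, a ratio of 0.898, with subsets on both sides of 1: 58.5 and 46.7 CPM in those with resident markers and 41.2 and 60.3 in those with Arg1. CD8 T-like cells, at 18.8 and 18.4 CPM, overlapped between libraries.

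**Figure D3:**
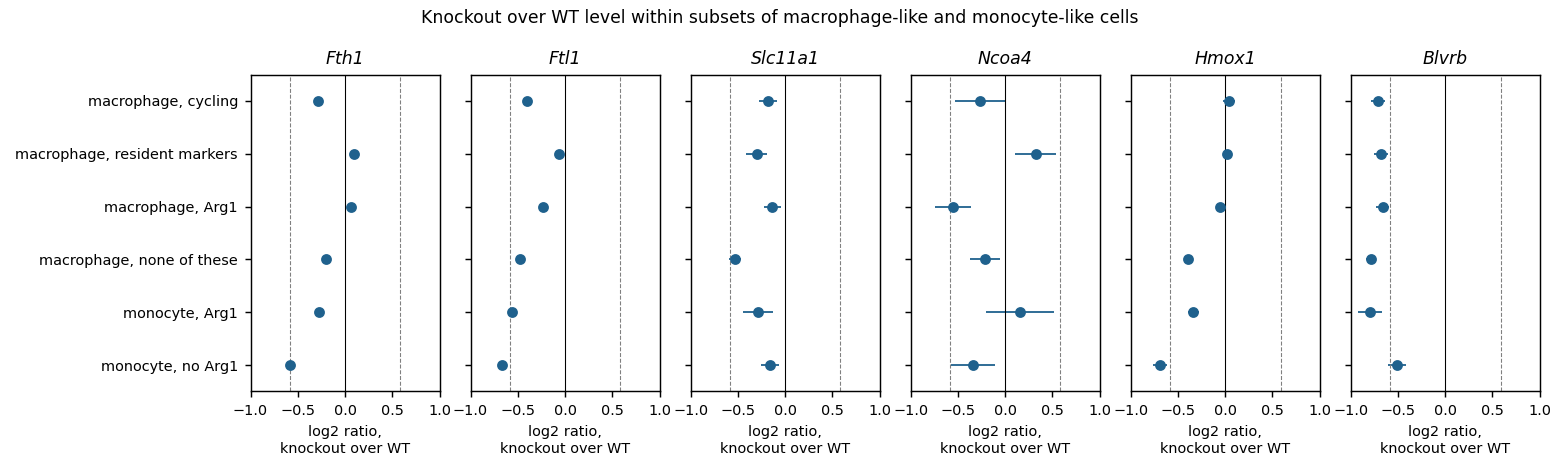
Log2 ratio of knockout over WT level of 6 genes within 4 subsets of macrophage-like cells and 2 of monocyte-like cells, with exact 95% intervals for counting error and dashed lines at 1.5-fold. Blvrb lies left of 0 in all 6 subsets, with ratios from 0.575 to 0.702, and Fth1, Ncoa4 and Hmox1 lie on both sides of 0.

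Transferrin receptor, Tfrc (chromosome 16, 32608920 to 32632794, plus strand), was highest in CD8 T-like cells among the classes compared, at 102 and 105 CPM, a ratio of 0.969 (0.933 to 1.01). Among these 9 classes Tfrc was highest in the class with the lowest Fth1 and Ftl1 levels. Cycling CD8 T-like cells held 119 and 126 CPM and the others 68.7 and 69.8, so the difference by cycling was larger than that by library. A Tfrc UMI was found in 60.8% and 65.9% of CD8 T-like cells, and in 18.4% and 20.7% after thinning to 3000 UMIs, against 1.48% and 0.625% of mature dendritic-like cells, the lowest class.

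The next classes in Tfrc, cDC1-like (37.3 and 32.9 CPM), neutrophil-like (28.8 and 39.4), cDC2-like (27.1 and 28.5) and NK-like cells (26.2 and 33.4), overlapped as neighbours in both libraries. Macrophage-like cells held 18.7 and 23.3 CPM, a ratio of 0.800 (0.724 to 0.883), with free RNA giving an estimated 35.1% and 17.5% of the UMIs. None of the 7 classes measured for Tfrc passed 1.5-fold either way. Plasmacytoid dendritic-like cells, with 123 and 35 cells too few to compare, held Tfrc at 305 and 212 CPM, above CD8 T-like cells, with Fth1 at 3671 and 5025 CPM.

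The endosomal importer Slc11a2 (chromosome 15, 100387898 to 100425072, minus strand) was highest in Inhba phagocytes, at 44.1 and 48.0 CPM, and macrophage-like cells, at 34.6 and 37.2, and the intervals of these 2 classes overlapped in the WT library. In cDC1-like cells it stood at 18.1 and 11.95 CPM from 52 and 45 UMIs, a ratio of 1.52 (0.997 to 2.31), an interval that reaches below 1. There 1 of 8 genes measured, Slc11a2, was 1.5-fold higher, where 6.21% of all genes were, and 3 of 8, Fth1, Slc11a1 and Hmox1, were lower, where 4.27% were. The Slc11a2 value was short of 1.5-fold under 6 of 12 alternatives.

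Its relative Slc11a1 (chromosome 1, 74375195 to 74386062, plus strand) pumps metal ions out of the phagosome and is known for its part in resistance to intracellular microbes. Macrophage-like cells held 228 and 290 CPM, a ratio of 0.786 (0.764 to 0.808), Inhba phagocytes 122 and 170, a ratio of 0.719, and monocyte-like cells 132 and 152, a ratio of 0.871. It was below 1 in 4 of 4 macrophage subsets, from 0.692 in the remainder to 0.911 in those with Arg1. Neutrophil-like cells were level, at 149 and 148 CPM. The cDC1-like value, 16.02 and 33.5 CPM, rested on 10 cells for 58.7% and 61.9% of its UMIs, and those WT cells held macrophage markers at 3685 CPM against 113 in the others. After thinning, its log2 ratio was 0.016.

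Ferroportin, Slc40a1 (chromosome 1, 45908068 to 45926523, minus strand), had its highest level in neutrophil-like cells. They held 186 CPM (160 to 215) against 106 CPM (79.9 to 139) in WT, a ratio of 1.75 (1.28 to 2.42) from 181 and 54 UMIs. A UMI was found in 39.7% (95% exact binomial interval 33.0 to 46.8) and 27.9% (19.5 to 37.5) of these cells at median depths of 4216.5 and 4445 UMIs. After thinning to 3000 UMIs the shares were 30.6% and 19.6%, with 24 and 7 shallower cells left out, and in CD8 T-like cells, which should lack the gene, 0.0913% and 0.0592%. The unthinned CD8 T-like shares were 0.273% and 0.412% at median depths of 20483 and 24243 UMIs. Free RNA gave an estimated 0.511% and 1.26% of the neutrophil UMIs.

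These cells were gated on at least 3 of 6 neutrophil markers, so their median of 5 and 4 positive markers is no separate check. Macrophage markers summed to 161 and 473 CPM, against 8619 and 11549 in macrophage-like cells. The 10 neutrophil-like cells with most Slc40a1 held 31.5% and 57.4% of its UMIs, with macrophage markers at 31.0 and 370 CPM. Without them the log2 ratio went from 0.81 to 1.48, and as a mean of per-cell CPM it was 0.56, short of 1.5-fold. This was the single gene of 5 measured that was 1.5-fold higher in neutrophil-like cells, where 11.3% of all genes were, so the count is near the background.

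**Figure D4:**
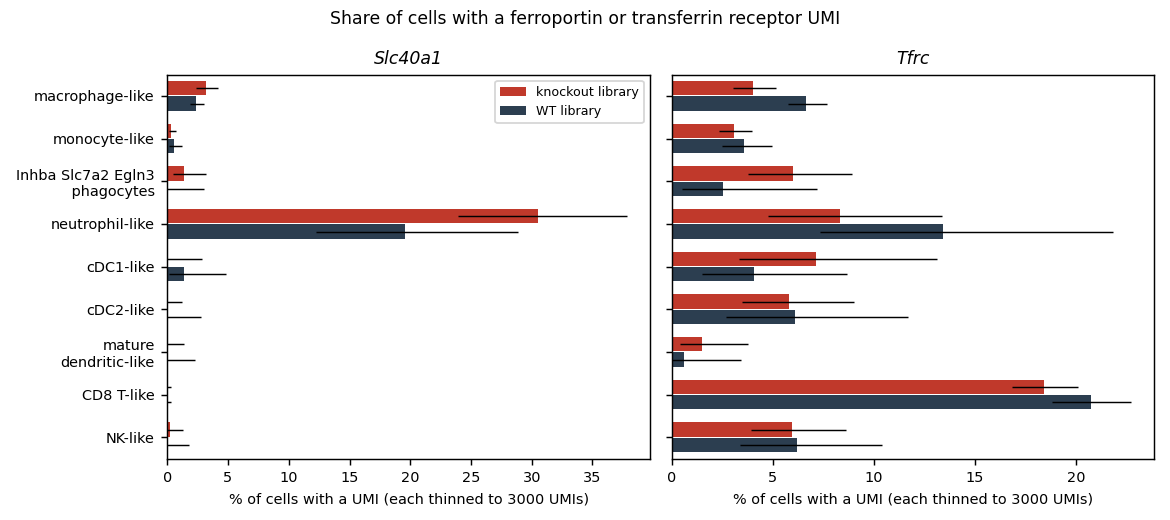
Share of cells with a Slc40a1 or a Tfrc UMI in 9 classes after each cell was thinned to 3000 UMIs, for the knockout (red) and WT (dark) libraries, with exact 95% binomial intervals. Neutrophil-like cells have the highest Slc40a1 shares, 30.6% and 19.6%, and CD8 T-like cells the highest Tfrc shares, 18.4% and 20.7%.

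Macrophage-like cells followed with Slc40a1 at 20.3 and 15.4 CPM, a ratio of 1.32 (1.20 to 1.47), and in contrast to the neutrophils only 6.76% and 7.47% of them had a UMI. The 10 cells with most Slc40a1 held 53.4% and 42.2% of the UMIs, and without them the log2 ratio went from 0.41 to 0.10. The 2 libraries also differed in where these UMIs lay. Cells with resident markers held 44.5 and 48.9 CPM, and they gave 665 of the 1020 WT UMIs and 187 of the 590 knockout UMIs. Of the UMIs in this subset 10 cells held 95.2% and 64.1%, and 1 cell held 38.0% of the knockout ones. Cells with Arg1 held 24.4 and 12.5 CPM, a ratio of 1.95 (1.55 to 2.45), with 72.3% and 70.3% of the UMIs in 10 cells. Cycling cells held 19.9 and 3.16 CPM, but all 90 knockout UMIs there came from 8 cells and 47.8% of them from 1 cell. In the WT library the 10 macrophage-like cells with most Slc40a1 held resident markers at 2279 CPM against 456 in the other cells, and in the knockout library at 603 against 400.3.

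Monocyte-like cells held Slc40a1 at 2.83 and 2.41 CPM from 62 and 32 UMIs, with intervals that overlap. These UMIs came from 18 of 1884 and 10 of 960 cells, and 10 cells held 87.1% and 100% of them. In Inhba phagocytes there were 48 and 3 UMIs, under the minimum of 50, and 10 cells held 93.8% of the 48. In cDC1-like and cDC2-like cells of the knockout library no UMI was found among 127 and 311 cells, and in the WT library there were 2 and 1.

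Other genes of iron and haem handling, taken from 7 lists of 63 genes in all, lay on both sides in macrophage-like cells. Of the 50 with at least 50 UMIs, 5 were at least 1.5-fold higher, where 6.06% of all genes were, and 5 lower, where 5.29% were. Their median log2 ratio was -0.10, against -0.01 over all 12541 genes. Among 12 regulators, 3 were higher and none lower: Hif1a, the hypoxia factor, at 230 and 138 CPM, a ratio of 1.67 (1.62 to 1.73), Bach2, a repressor related to the haem sensor Bach1, at 50.2 and 22.0 CPM, a ratio of 2.28 (2.12 to 2.45), and Epas1, for which free RNA gave an estimated 68.1% and 82.2%. Bach1 itself stood at 153 and 178 CPM, and Nfe2l2, the activator of Hmox1 and ferritin genes, at 224 and 193.

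Of 5 measured genes of haemoglobin and haem uptake, 2 were higher and 1 lower. Cd163, the haemoglobin scavenger receptor, stood at 12.6 and 8.30 CPM, a ratio of 1.52 (1.33 to 1.73), with 76.4% and 54.3% of the UMIs in 10 cells. Hp, which encodes haptoglobin, stood at 7.21 and 2.06 CPM, with an estimated 42.9% and 71.3% from free RNA. The scavenger receptor Marco was lower, at 5.001 and 10.1 CPM, a ratio of 0.496, with 61.4% and 74.2% of its UMIs in 10 cells.

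The other lower genes included Cp, Lcn2 and Hamp. Cp, or ceruloplasmin, the copper oxidase that works with ferroportin, stood at 20.1 and 32.5 CPM, a ratio of 0.618 (0.563 to 0.677), in 20.2% and 34.6% of cells. Lcn2, a binder of bacterial iron carriers, had 14 and 96 UMIs, and free RNA could account for all of the 14. Hamp, the hormone hepcidin that removes ferroportin from the cell surface, had 0 UMIs against 52 in WT, all of these in 6 of 2649 cells. A floor of 3 UMIs in the knockout class would lie 7.57-fold below the WT level. With the WT UMIs in 6 cells, the draw of cells is not in that figure, so it gives no bound on the difference.

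In monocyte-like cells 1 of 44 such genes was 1.5-fold lower, where 3.40% of all genes were, and none was higher, where 5.42% were. Spic, a factor of iron-recycling macrophages, stood at 3.70 and 7.67 CPM, a ratio of 0.483 (0.356 to 0.653), with 64.2% and 72.5% of the UMIs in 10 cells. In CD8 T-like cells 1 of 43 was higher, where 3.10% of all genes were, and 3 were lower, where 5.53% were, so these counts lie near the background. Epas1 stood at 16.9 and 37.0 CPM, a ratio of 0.457 (0.422 to 0.495), in 15.5% and 31.9% of cells, and the porphyrin exporter Abcg2 at 3.58 and 5.90. Ltf, or lactoferrin, a secreted iron binder, stood at 0.961 and 1.81 CPM, with free RNA put at 0.983% and 3.46% of its UMIs and 55.6% and 55.1% of them in 10 cells. The zinc and iron importer Slc39a8 was higher at 1.07 and 0.590 CPM from 60 and 29 UMIs, with free RNA put at 3.54% and 6.37%.

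Over the 18 class and library points, the genes most like each of 3 members in log2(CPM + 1) were named by Pearson's r among 13833 genes. The points share 2 libraries, so r is a description. Hmox1 was followed by Ctsl (0.981), Ctsb (0.975), C3ar1 (0.962), Cd93 (0.962) and Plin2 (0.961). For Slc40a1 they were Fpr1 (0.957), Hnmt (0.956), Napa (0.936), Slc27a4 (0.931) and Reps2 (0.930), and for Tfrc Hist1h2ak (0.921), Cdc25b (0.906), Batf (0.899), Hmgn2 (0.894) and Exosc4 (0.893).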

How the data were processed

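Single-cell RNA was counted as UMIs in 2 droplet libraries, 1 per group. The authors deposited raw UMI counts for every barcode, made with Cell Ranger 7.2.0 per the file headers, on mm10 per the submitters' processing notes. Cells were told from empty droplets with an EmptyDrops-like test and kept at 250 genes or more and at most 10% mitochondrial UMIs. Doublets were taken out with Scrublet in scanpy 1.11.5 (342 and 146). A class needed 3 positive markers (for Inhba phagocytes 2 of 3 in cells that passed no other gate, a gate added after the data were seen). A gene's level was its UMIs over all cells of a class in a library, divided by all UMIs of those cells. Exact Poisson, binomial and conditional intervals at 95% were computed with scipy 1.17.1. A difference counted at 1.5-fold with 50 UMIs in a library. Scripts were tested on simulated data. Named genes were the 9 members and the listed pathway genes past 1.5-fold, up to 10 per class each way, and the 5 genes most like each of 3 members. Blvra, Hmox2, Flvcr1, Bach1 and Nfe2l2 fall outside that rule and were named after their values were seen. Members and lists were chosen with earlier results of these data known. The 12 alternatives varied filters, gates, free RNA, scaling and depth. Some items of the gene lists are not reported here.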

Additional observations from a re-analysis of the deposited data

Results flagged for a closer look

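Hmox1 in melanoma-like cells drew attention because these cells, which passed the CD45 sort, enter no comparison above. The level was 160 CPM in 53 cells of the knockout library and 59.0 CPM in 217 cells of the WT library, a ratio of 2.71 (2.50 to 2.93, counting error only). In the knockout library 10 cells held 80.6% of the UMIs, and in the WT library 27.7%. Its difference from the immune classes was not tested.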

How the results depend on the processing

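With 12 alternatives, 774 values of the 65 measured pairs were recomputed: 570 stayed within counting error of the main value and 201 moved beyond it. The other 3 were changes of sign in pairs past 1.5-fold: Hmox1 in cDC2-like cells (log2 ratio 0.44 without the 10 cells with most UMIs) and Slc11a1 in CD8 T-like and cDC1-like cells (0.022 and 0.016 after thinning to 3000 UMIs). Counting all pairs, 38 values in 21 pairs lay on the other side of 0, 35 of them in 18 pairs short of 1.5-fold. These include Ftl1 and Fth1 in NK-like cells (2.10 and 0.70 with free RNA subtracted), and Blvrb in cDC2-like and Slc40a1 in monocyte-like cells (-0.75 and -1.13 after thinning). The count of 17 lower pairs was 11 with free RNA subtracted and 10 without the 10 cells with most UMIs. The count of 2 higher pairs was 4 with barcodes above the UMI threshold only and with free RNA subtracted, and 1 with doublets kept, median of ratios scaling, totals without mitochondrial and ribosomal genes, per-cell means or thinning. The cause was not tested. Of 19 pairs past 1.5-fold, 3 stayed so throughout: Ftl1 in monocyte-like cells, and Blvrb in macrophage-like cells and Inhba phagocytes. Slc40a1 in neutrophil-like cells had no value above the UMI threshold. No paired analysis was possible because each group has 1 library. Intervals cover counting error only, so differences between tumours are not in them.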

Other observations

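Among classes too small to compare, CD4 T-like cells, 200 in the knockout and 41 in the WT library, held Tfrc at 95.03 and 57.7 CPM. These levels came from 383 and 28 UMIs, with 43.1% and 89.3% of them in 10 cells. Of these CD4 T-like cells 24.0% and 9.76% were cycling. Non-classical monocyte-like cells, 94 and 56, held Hmox1 at 249 and 150 CPM, with 81.6% and 85.2% of the UMIs in 10 cells. Melanoma-like cells held Tfrc at 171 and 140 CPM.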
